A study of Bos taurus with 9 samples.

Results

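The genes described here are 6 genes of vitamin D turnover and calcium transport in cultured bovine uterine glands. They are CYP27B1 and CYP24A1, the enzymes that make and degrade the active hormone, the vitamin D receptor VDR and its partner RXRA, the calcium channel TRPV6 and the calcium-binding protein S100G. They were found by symbol, and 6 of 6 were among the 20679 genes of the deposited tables. The 6 genes were selected on measured values of these same libraries, with CYP24A1 singled out for its small unadjusted p in the comparison of MAT + COL with MAT. Their levels and fold changes are therefore given as a description, without p-values, and calls on them are no independent evidence.

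RNA-seq was performed on day 5 of culture on 9 libraries of bovine uterine gland fragments, 3 in each of 3 groups. Fragments of every group were embedded in Matrigel, a basement membrane gel, in DMEM/F12 medium with insulin, transferrin, selenite, ascorbic acid and BSA, and no vitamin D metabolite is named among these additions. The CYST group received no epidermal growth factor (EGF) and formed cysts, the MAT group received EGF and formed tubular UG-LIKE structures, and the MAT + COL group received EGF in Matrigel mixed with type I collagen. The fragments came from abattoir uteri with a corpus luteum and were picked under a stereomicroscope, so each library is a bulk of fragments with any cells attached to them, and the age and breed of the animals are not given in the sources used here. Replicate numbers 1 to 3 recur in the labels of each group. The study's text speaks of individuals for the MAT and MAT + COL libraries, but the labels tie no replicate number to an animal, so the tests measure the spread between these libraries. Same-numbered libraries deviated together across genes, and each comparison was therefore also fitted with the replicate number as a block.

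Vitamin D reaches cells as a precursor that CYP27B1 converts to calcitriol, and CYP24A1 breaks calcitriol down. Calcitriol binds VDR, which pairs with a retinoid X receptor such as RXRA on DNA, and CYP24A1, TRPV6 and S100G are textbook targets of this complex. TRPV6 lets calcium in at the apical membrane, S100G (calbindin-D9k) binds it in the cytoplasm, and calcium pumps release it on the other side. In the uterus, S100G and TRPV6 are also known to respond to ovarian steroid hormones.

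The total counts per library ran from 6568968 to 17948600, and the 3 MAT + COL libraries, at 16665013 or more, were deeper than most of the others. All 7 markers of gland epithelium were detected in every group, with a summed TPM (a level scaled to transcript length and library size) of 17668.4 to 19095.4 in CYST, 28245.0 to 43972.4 in MAT and 29107.4 to 39222.6 in MAT + COL. The summed TPM of 8 stromal markers was 2224.9 to 4798.4 in CYST, 1190.6 to 3742.2 in MAT and 2196.6 to 4249.1 in MAT + COL. Leukocyte, endothelial and smooth muscle markers summed to 83.8 TPM or less per list in every library. Of the leukocyte markers, CD3E and LYZ stayed below 1 TPM in every library. CD14 stood at 13.2 to 45.2 TPM and CD68 at 2.21 to 10.2 TPM, so the list does not show that leukocytes were absent. In these bulk libraries, fewer cells of a type and less RNA per cell cannot be told apart. The epithelial sum was higher in both EGF groups than in CYST without overlap, and it rests mainly on KRT8 and KRT19. EPCAM was also higher in both EGF groups without overlap, whereas KRT18, FOXA2 and CLDN4 overlapped between the groups. The part of these markers in the differences below was not tested.

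S100G stood far above the other 5 genes. It was first in TPM in 9 of 9 libraries, VDR was in place 5 in 9 and RXRA last in 9. The places between them were not fixed, since TRPV6 was second in 4 libraries, CYP27B1 in 3 and CYP24A1 in 2. TRPV6, CYP24A1 and CYP27B1 overlapped in TPM within CYST and within MAT, so their order there did not differ beyond the spread of the libraries. In MAT + COL, the highest CYP24A1 library (12.7 TPM) lay just below the lowest TRPV6 library (12.8 TPM), and both genes overlapped with CYP27B1.

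**Figure D1:**
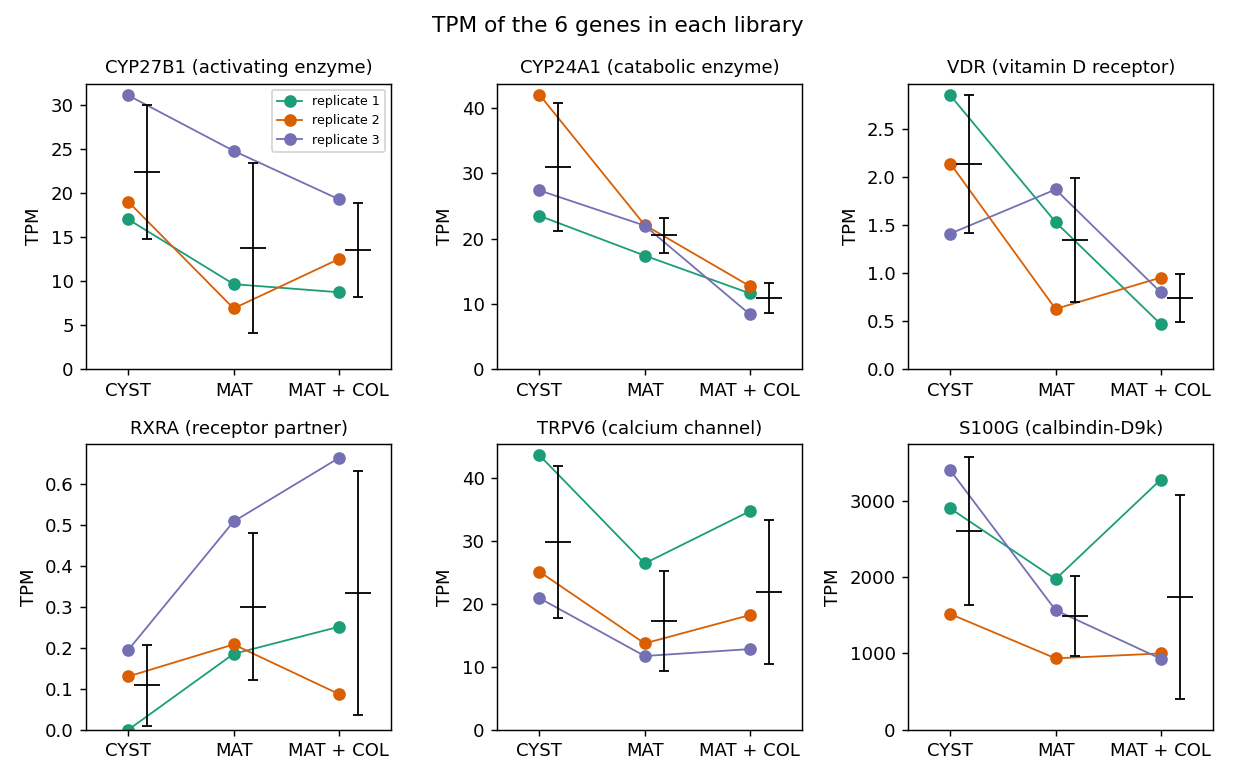
TPM of CYP27B1, CYP24A1, VDR, RXRA, TRPV6 and S100G in each of the 9 libraries, with a panel per gene and its own TPM axis from 0. Points joined by a line are libraries with the same replicate number, and black bars are the group mean ± SD (n = 3). CYP24A1, which was selected on its MAT + COL values, stepped down from CYST to MAT to MAT + COL without overlap between groups. The other genes overlapped in at least 2 of the 3 comparisons.

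CYP27B1 (ENSBTAG00000016906), which makes calcitriol, lies on chromosome 5 at 55698269 to 55703344 on the plus strand of ARS-UCD2.0. Its TPM was 17.0, 19.0 and 31.1 in CYST replicates 1, 2 and 3, 9.64, 6.88 and 24.8 in MAT and 8.72, 12.5 and 19.3 in MAT + COL. Replicate 3 was the highest library of each group, and all groups overlapped. The group means were 22.3 ± 7.66, 13.8 ± 9.64 and 13.5 ± 5.34 TPM (SD, n = 3), and CYP27B1 was lower in MAT than in CYST in 3 of 3 same-numbered pairs, at 0.568, 0.363 and 0.796 times the TPM. Of 12858 genes, 24% were lower in MAT in 3 of 3 pairs.

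CYP24A1 (ENSBTAG00000002765), which degrades calcitriol, lies on chromosome 13 at 81592173 to 81610648 on the minus strand. Its TPM was 23.5, 42.1 and 27.4 in CYST, 17.4, 22.1 and 22 in MAT and 11.6, 12.7 and 8.38 in MAT + COL, from 91 to 550 counts per library. The lowest CYST library lay above the highest MAT library by a small margin, and every MAT library lay above every MAT + COL library. The means were 31.0 ± 9.84, 20.5 ± 2.67 and 10.9 ± 2.23 TPM (SD, n = 3). CYP24A1 was the only gene of the 6 whose groups did not overlap in any of the 3 comparisons, and it was lower in 3 of 3 same-numbered pairs each time. The pairs gave 0.740, 0.524 and 0.803 times the TPM for MAT against CYST, and 0.669, 0.573 and 0.381 times for MAT + COL against MAT. Of 12858 genes, 11.5% were lower without overlap in MAT against CYST, 0.817% in MAT + COL against MAT and 10.2% in MAT + COL against CYST. Those lower in 3 of 3 pairs were 24%, 7.82% and 19.6%. CYP24A1 was selected on its values in MAT + COL, so nothing is read from these shares.

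The ratio of CYP27B1 to CYP24A1 TPM sets the making enzyme against the degrading enzyme within a library. It was 0.722, 0.450 and 1.14 in CYST, 0.554, 0.312 and 1.13 in MAT and 0.749, 0.989 and 2.30 in MAT + COL. The ratio was higher in MAT + COL than in the same-numbered MAT library in 3 of 3 pairs, while the ranges of the groups overlapped. CYP24A1, the denominator, was selected for being lower in MAT + COL, so this restates the selection, and CYP27B1 itself went both ways, at 0.904, 1.82 and 0.777 times its MAT level. The ratio was above 1 only in the libraries of replicate 3.

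VDR (ENSBTAG00000016414), the receptor that carries the calcitriol signal to DNA, lies on chromosome 5 at 32376155 to 32441113 on the plus strand. Its level was low, with TPM of 2.85, 2.14 and 1.41 in CYST, 1.53, 0.625 and 1.87 in MAT and 0.465, 0.952 and 0.797 in MAT + COL, and these values rest on 18 to 80 counts per library. MAT overlapped with both other groups, whereas every MAT + COL library lay below every CYST library. The means were 2.13 ± 0.722, 1.34 ± 0.642 and 0.738 ± 0.249 TPM (SD, n = 3).

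RXRA (ENSBTAG00000017851), a partner of VDR on DNA, lies on chromosome 11 at 105021655 to 105114877 on the plus strand and was close to undetected. It had 0, 7 and 7 counts in CYST, 4, 12 and 22 in MAT and 14, 5 and 36 in MAT + COL, which corresponds to at most 0.663 TPM. The 0 in CYST replicate 1 allows up to 0.356 CPM (counts scaled to library size) by counting error alone, taking 3 counts as the limit. Replicate 3 was the highest MAT and the highest MAT + COL library, all groups overlapped, and differences in RXRA were not detectable at this depth. RXRB, which encodes a second retinoid X receptor, was the abundant form, with a TPM of 10.4, 9.16 and 11.5 in CYST, 15.2, 6.96 and 26.8 in MAT and 12.3, 8.46 and 28.4 in MAT + COL. RXRG, the third form, had 0 counts in every library.

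TRPV6 (ENSBTAG00000024219), the calcium entry channel, lies on chromosome 4 at 106181051 to 106199616 on the minus strand, 90 bases from EPHB6 on the other strand. Its TPM was 43.6, 25.1 and 20.9 in CYST, 26.4, 13.7 and 11.7 in MAT and 34.7, 18.2 and 12.8 in MAT + COL. Replicate 1 was the highest and replicate 3 the lowest library in each group, so the groups overlapped although the same-numbered pairs moved alike. The pairs gave 0.605, 0.546 and 0.560 times the TPM for MAT against CYST and 1.31, 1.32 and 1.09 times for MAT + COL against MAT. The means were 29.9 ± 12.1, 17.3 ± 7.96 and 21.9 ± 11.4 TPM (SD, n = 3). TRPV5, its close paralog in the neighbouring position, had at most 19 counts and 1.12 TPM in any library, and how the counting treated reads that match both genes is not given.

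S100G (ENSBTAG00000017020), the cytoplasmic calcium buffer, lies on the X chromosome at 126857761 to 126861285 on the minus strand. Its TPM was 2904.0, 1517.8 and 3404.4 in CYST, 1976.2, 936 and 1569.2 in MAT and 3283.5, 1000.8 and 931 in MAT + COL, which placed it between rank 20 and rank 125 of all genes from the top. All groups overlapped, and MAT + COL replicate 1 stood at more than 3 times the other MAT + COL libraries. The means were 2608.7 ± 977, 1493.8 ± 524 and 1738.3 ± 1338.6 TPM (SD, n = 3), and S100G was lower in MAT than in CYST in 3 of 3 pairs, at 0.681, 0.617 and 0.461 times the TPM. Of 12858 genes, 24% were lower in MAT in 3 of 3 pairs. The whole of S100G lies inside CTPS2 on the opposite strand, and the strand setting of the counting is not given in the sources used here, so reads of this pair cannot be told apart with certainty. S100G stood at 9.93 to 60.1 times the TPM of CTPS2, which was 51.8 to 121. TPM is scaled to transcript length, and in counts S100G had 2445 to 10483 per library and CTPS2 1090 to 3638. The part of CTPS2 reads in the S100G values was not tested.

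Along the route of calcium, the other measured members of these lists set the 6 genes in context. The other cytoplasmic buffers of the calbindin kind were at the edge of detection, with CALB1 at 0 to 2.09 TPM, CALB2 at 0.683 or less and PVALB at 0, while CALM2, which encodes the calcium sensor calmodulin, was at 2079.6 to 2656.9 TPM. The calcium pump ATP2B1 was at 39.1 to 77.7 TPM. Among the enzymes that act before CYP27B1, CYP27A1 was at 90 to 259 TPM and CYP2R1 at 5.24 to 9.98 TPM. The vitamin D carrier gene GC had 0 counts in every library.

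**Figure D2:**
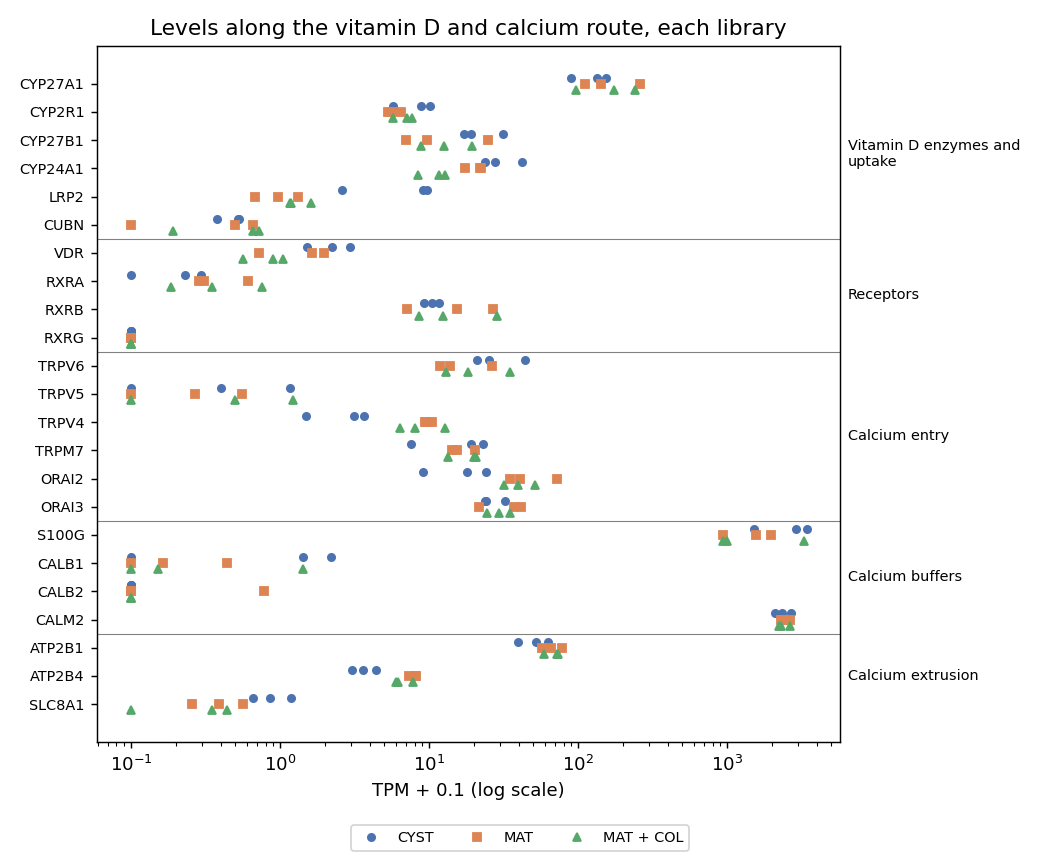
TPM + 0.1 on a log axis for the 6 genes and other genes of vitamin D turnover, its receptors, calcium entry, calcium buffering and calcium extrusion, with each point a library and its shape and colour the group. S100G and CALM2 are the highest genes drawn, whereas RXRA, RXRG and CALB2 lie toward the left edge, where 0 TPM is drawn at 0.1.

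The comparison of MAT with CYST addressed what EGF and the UG-LIKE form changed. CYP27B1, CYP24A1, VDR, TRPV6 and S100G were each lower in MAT in the fit, and none passed the test without the replicate block. By edgeR's quasi-likelihood test with an adjusted p under 0.05, 0 of 5 genes passed, beside 1.79% of the 12074 genes tested, and DESeq2 called 0 of 5, beside 10.6% of all genes. The edgeR fit of all 9 libraries called none of the 6, beside 4.51%. Each of the 5 unblocked 95% intervals included 0. With the replicate block, 2 of 5 passed, beside 10.6% of all genes, and these were TRPV6 and S100G. Both calls are no independent evidence, since the 6 genes were selected on measured values of these same libraries. RXRA did not reach the count filter in this comparison, so 5 of the 6 genes were tested.

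The Log2FC of S100G in MAT against CYST was -0.86 (SE 0.41, 95% interval -1.81 to 0.08) and -0.80 (SE 0.20, -1.27 to -0.33) with the block. That of TRPV6 was -0.80 (SE 0.37, -1.65 to 0.05) and -0.82 (SE 0.19, -1.27 to -0.37) with the block. The fitted differences of S100G and TRPV6 barely moved with the block while their intervals narrowed. S100G and TRPV6 were each lower in 3 of 3 pairs, as were 24% of 12858 genes. Both stayed short of the Log2FC of -1 that the study's criteria for differentially expressed genes (DEGs) ask for. CYP24A1 had a Log2FC of -0.60 (SE 0.28, -1.25 to 0.06), and -0.58 (SE 0.23, -1.12 to -0.04) with the block. CYP27B1 had one of -0.74 (SE 0.54, -1.99 to 0.51), and -0.88 (SE 0.25, -1.45 to -0.30) with the block. Neither passed the adjusted threshold in either fit, although the blocked intervals left out 0. Without the block, the value of CYP27B1 was -1.53 when MAT replicate 3 was left out and -0.27 when CYST replicate 3 was. VDR had a Log2FC of -0.65 (SE 0.54, -1.90 to 0.59), and -0.76 (SE 0.53, -2.0 to 0.47) with the block. CYP24A1 was the single gene of the 6 that was lower in MAT with no overlap of the groups, a pattern that 11.5% of 12858 genes showed.

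Of the other 91 listed genes found in the tables, 60 were tested in MAT against CYST. Of these, 2 passed without the block, beside 1.79% of all genes. LRP2, which encodes megalin, an endocytic receptor that takes up vitamin D with its carrier, had a TPM of 9.57, 9.0 and 2.51 in CYST, 0.584, 0.875 and 1.22 in MAT and 1.51, 1.06 and 1.09 in MAT + COL. Every CYST library lay above every EGF library. LRP2 fell in MAT with a Log2FC of -2.90 (SE 0.49, edgeR adjusted p = 0.0403) and missed the DEG criteria because its TPM was under 1 in some libraries. TRPV4, a calcium-permeable channel that responds to swelling and stretch, had a TPM of 3.06, 3.57 and 1.40 in CYST, 9.5, 9.31 and 10.3 in MAT and 7.99, 6.24 and 12.6 in MAT + COL. It rose in MAT with a Log2FC of 1.89 (SE 0.35, edgeR adjusted p = 0.0462), with no overlap between the groups, whereas TRPV6 of the same channel family was lower. LRP2 and TRPV4 also passed in DESeq2, but LRP2 did not pass with limma on log2(TPM + 1) or log2(TPM + 0.1). The call of LRP2 held when CYST replicate 3 was left out and was lost without any other library. The call of TRPV4 was lost without any of the 6. Their Log2FC stayed between -3.26 and -2.59 for LRP2 and between 1.64 and 2.13 for TRPV4 in these smaller fits, where the calls over all genes ran from 5 to 267.

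With the replicate block, 10 of the 60 genes passed, 8 of them higher in MAT. Over all 12074 genes tested, 1277 (10.6%) passed with the block, 592 of them higher and 685 lower. Among the textbook VDR targets, IGFBP3, which binds insulin-like growth factors, had a TPM of 6.20, 4.08 and 39.7 in CYST and 91.6, 89.5 and 1196.8 in MAT. IGFBP3 rose with the block by a Log2FC of 4.43 (SE 0.23, edgeR adjusted p = 0.000327), while without it the adjusted p was 0.118. TXNIP, which binds thioredoxin, rose with the block by 2.06 (SE 0.22, adjusted p = 0.0038), and G0S2, an inhibitor of fat breakdown, rose by 1.82 (SE 0.45, adjusted p = 0.0429). Of 18 other textbook targets found, the 9 that were tested all had a Log2FC above 0 in both fits. Their median was 0.39 without the block and 0.57 with it, beside 0.01 over all genes. The untested targets were below the count filter, and their mean TPM went both ways. CALB1 was at 1.14 in CYST and 0.136 in MAT, and THBD at 0 and 0.484. CYP24A1, TRPV6 and S100G, which are also textbook targets, had a Log2FC below 0.

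Among calcium genes, ORAI2, a store-operated channel, rose with the block by a Log2FC of 1.57 (SE 0.33, edgeR adjusted p = 0.0292). ATP2B4, a plasma membrane calcium pump, rose by 1.11 (SE 0.22, adjusted p = 0.0252) and ITPR3, a calcium release channel, by 1.35 (SE 0.34, adjusted p = 0.0464). STC1, which encodes the secreted hormone stanniocalcin, went the other way and fell with the block, with a Log2FC of -2.0 (SE 0.37, adjusted p = 0.0199), from 209, 152 and 472 TPM in CYST to 24, 72.5 and 133 in MAT. NR4A2, a nuclear receptor that can pair with retinoid X receptors, rose by 1.57 (SE 0.32, adjusted p = 0.0262). In the unblocked edgeR fit of the 6 libraries, ORAI2, ATP2B4, ITPR3, STC1 and NR4A2 did not pass, at adjusted p values of 0.131, 0.063, 0.111, 0.168 and 0.0813. DESeq2, which has no block, passed ORAI2, ATP2B4, ITPR3, NR4A2 and TXNIP, and the edgeR fit of all 9 libraries passed ATP2B4, NR4A2 and TXNIP, whereas STC1, IGFBP3 and G0S2 passed in neither. DESeq2 also passed the textbook VDR target SPP1 and the nuclear receptor gene RARA. Their edgeR Log2FC was 2.76 (SE 0.79) and 0.74 (SE 0.21), and neither passed in edgeR without or with the block. The study itself names SPP1 among the genes upregulated by EGF. Without the block, the median Log2FC was 0.17 for 10 genes of calcium entry and 0.23 for 13 genes of extrusion and stores. It was -0.10 for 16 genes of vitamin D metabolism and the receptor complex, beside 0.01 over all genes. No calcium buffer passed. Without the block, the smallest p of the buffers belonged to CALR, a calcium-binding chaperone, with a Log2FC of -0.15 (SE 0.18).

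**Figure D3:**
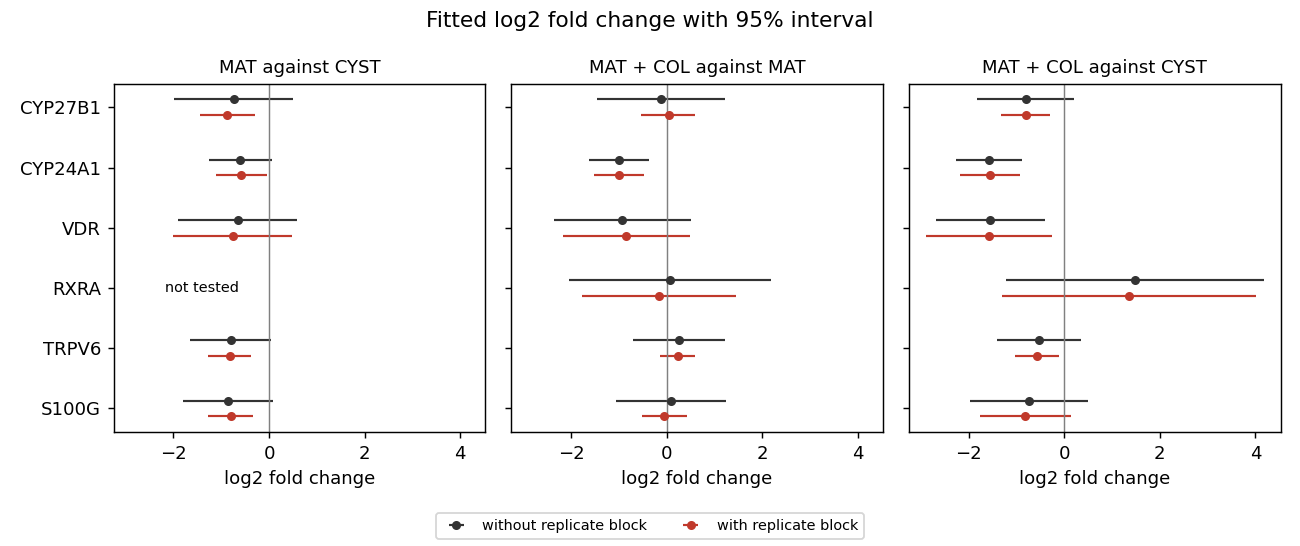
Log2FC of the 6 genes with its 95% interval in each comparison, without the replicate block in black and with it in red, on 1 common axis. Both CYP24A1 intervals lie wholly below 0 in MAT + COL against MAT, and both of CYP24A1 and of VDR do in MAT + COL against CYST. Only with the block, those of CYP27B1 and TRPV6 lie below 0 in both comparisons with CYST. The same holds for CYP24A1 and S100G in MAT against CYST. RXRA has the widest intervals.

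The comparison of MAT + COL with MAT addressed what collagen I added to EGF-treated glands. CYP24A1 was lower with collagen I in each pair, TRPV6 was slightly higher in each pair, and the other 4 genes went both ways. Of 12858 genes, 7.82% were lower in each pair, and CYP24A1 was selected on this comparison. The share of genes higher in each pair was not computed, so nothing is read from the pairs of TRPV6. No gene passed here. Of the 6 genes, 0 passed in edgeR without the block, with it or with all 9 libraries, and 0 in DESeq2, beside 0% of the 12470 genes tested in edgeR without the block, 0% with it, 0% in DESeq2 and 0% in the fit of all 9 libraries. At an unadjusted p under 0.05 there were 51 genes without the block, 618 with it and 63 in DESeq2.

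The Log2FC of CYP24A1 in MAT + COL against MAT was -1.0 (SE 0.27, 95% interval -1.63 to -0.38), and -1.0 (SE 0.24, -1.53 to -0.48) with the block, which is 0.499 times the MAT level. Over the 13 alternative settings it ran from -1.13 to -0.86. Its interval was the single interval of the 6 that left out 0, in the comparison on which it was selected. Among 12858 genes, 0.817% were lower in MAT + COL with no overlap of the groups, and nothing is read from this share, since CYP24A1 was selected on this comparison. VDR had a Log2FC of -0.93 (SE 0.61, -2.36 to 0.50), and its pairs gave 0.303, 1.52 and 0.427 times the TPM, so it was lower in 2 of 3 pairs.

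TRPV6 had a Log2FC of 0.25 (SE 0.41, -0.70 to 1.21) and 0.23 (SE 0.16, -0.13 to 0.59) with the block. S100G had one of 0.09 (SE 0.49, -1.06 to 1.25), which became -0.65 without MAT + COL replicate 1. CYP27B1 had one of -0.12 (SE 0.57, -1.46 to 1.23), which became 0.69 without MAT replicate 3, and RXRA one of 0.06 (SE 0.90, -2.05 to 2.18). These intervals span both a lower and a higher level, and the direction of CYP27B1, RXRA, TRPV6 and S100G changed in at least 1 of the 13 settings.

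Of 62 other listed genes tested for collagen I, 0 passed in edgeR without or with the block or in DESeq2, and 0 had an unadjusted p under 0.05 without the block and 2 with it. The smallest p of the vitamin D metabolism and receptor list belonged to NCOR1, a corepressor of nuclear receptors, with a Log2FC of 0.40 (SE 0.17, unadjusted p = 0.0547 and adjusted p = 1 in edgeR). In the other lists the smallest p belonged to G0S2 with a Log2FC of -1.65 (SE 0.95), ORAI2 with -0.35 (SE 0.30), CALM2 with -0.09 (SE 0.18), ATP2B4 with -0.31 (SE 0.22), STC2 with 0.61 (SE 1.08) and THRA with 0.76 (SE 0.59). Without the block, the median Log2FC was -0.22 over 10 genes of calcium entry, 8 of them below 0. It was 0.10 over 10 nuclear receptors that can pair with retinoid X receptors, 8 of them above 0. Over all genes tested, the median was -0.0005.

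The comparison of MAT + COL with CYST set both additions together against neither and used the same CYST libraries as the comparison of MAT with CYST, so their results are not independent. CYP24A1 and VDR were lower in MAT + COL in every pair and without overlap of the groups. Of 12858 genes, 19.6% were lower in every pair. In edgeR, 0 of 6 genes passed without the block, beside 1.49% of the 12509 genes tested, and 1 of 6 passed with it, beside 5.26%. That gene was CYP24A1, which also met the DEG criteria. DESeq2 passed CYP24A1 and VDR, beside 12.2% of all genes, and the edgeR fit of all 9 libraries passed CYP24A1, beside 4.67%. These calls are no independent evidence, since the 6 genes were selected on measured values of these libraries. CYP24A1 was selected on its values in the same MAT + COL libraries.

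The Log2FC of CYP24A1 in MAT + COL against CYST was -1.57 (SE 0.29, 95% interval -2.26 to -0.89), and -1.55 (SE 0.26, -2.19 to -0.92) with the block. In the pairs, CYP24A1 stood at 0.495, 0.300 and 0.306 times its CYST level. VDR had a Log2FC of -1.55 (SE 0.49, -2.69 to -0.41), and -1.57 (SE 0.55, -2.90 to -0.25) with the block, with pairs at 0.163, 0.446 and 0.566 times. The pattern of these genes, lower without overlap, was shared by 10.2% of 12858 genes. CYP27B1 (Log2FC -0.81, SE 0.44), TRPV6 (-0.53, SE 0.37) and S100G (-0.74, SE 0.53) had unblocked intervals that reached past 0. With the block, the intervals of CYP27B1 (-1.33 to -0.30) and TRPV6 (-1.03 to -0.10) left out 0, and that of S100G (-1.77 to 0.14) did not. CYP27B1 and TRPV6 were lower in 3 of 3 pairs, as were 19.6% of 12858 genes, and S100G in 2 of 3. RXRA had a Log2FC of 1.48 (SE 1.15, -1.21 to 4.17) on at most 36 counts, with 0.40 when MAT + COL replicate 3 was left out, 2.22 when CYST replicate 3 was and 0.25 with limma on log2(TPM + 1).

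Of 62 other listed genes in MAT + COL against CYST, 1 passed without the block and 4 with it, beside 1.49% and 5.26% of all genes. LRP2 fell by a Log2FC of -2.54 (SE 0.43, edgeR adjusted p = 0.0416) and met the DEG criteria. It still passed without CYST replicate 3 but not without any other library, with a Log2FC of -2.90 to -2.27 in these smaller fits. With limma on log2(TPM + 1) or log2(TPM + 0.1), LRP2 did not pass. With the block, IGFBP3 rose by 4.28 (SE 0.68, adjusted p = 0.0315), TXNIP by 1.88 (SE 0.21, adjusted p = 0.0163) and NR4A2 by 1.51 (SE 0.31, adjusted p = 0.0482). LRP2, TXNIP and NR4A2 also passed in DESeq2, and LRP2 and TXNIP in the edgeR fit of all 9 libraries, whereas IGFBP3 passed in neither. TRPV4 had a Log2FC of 1.73 (SE 0.43) and STC1 one of -1.74 (SE 0.61), and neither passed in edgeR on the 6 libraries, at adjusted p values of 0.0775 and 0.158 without the block. DESeq2 passed both, and the edgeR fit of all 9 libraries passed TRPV4. DESeq2 also passed SPP1 (edgeR Log2FC 2.98, SE 0.84), RARA (0.84, SE 0.22), STIM1 (-0.89, SE 0.25) and ITPR1 (-0.87, SE 0.28). None of these passed in edgeR on the 6 libraries. ATP2B4, with a Log2FC of 0.81 (SE 0.26), and CALR, with one of -0.20 (SE 0.17), had the smallest p of their lists and did not pass.

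**Figure D4:**
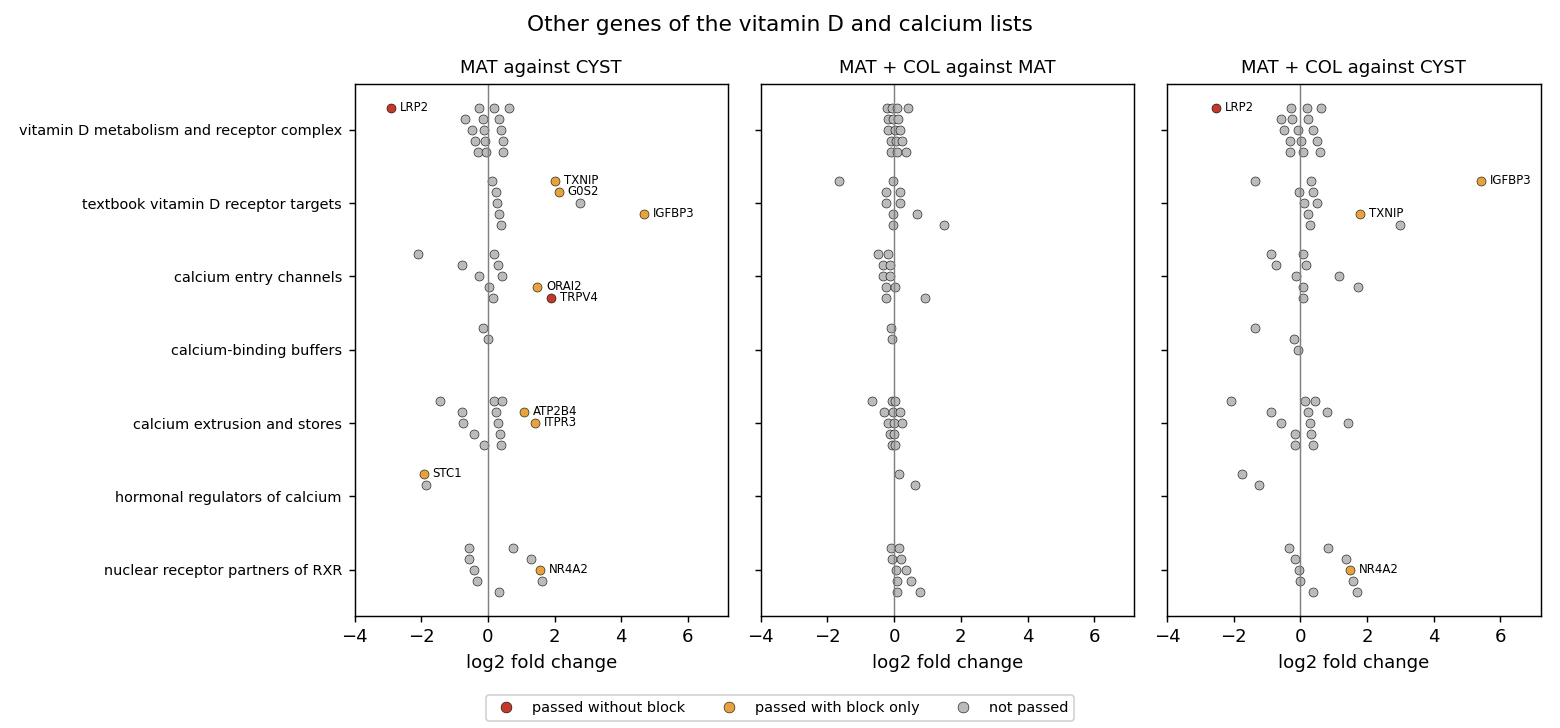
Log2FC without the replicate block for each tested gene of the 7 lists, the 6 genes left out, with the genes that passed named. Of the edgeR fits of 6 libraries, red points passed without the block, orange points with the block only, and grey points in neither. LRP2 lies below -2 in both comparisons with CYST, and no point is coloured in MAT + COL against MAT.

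Across the 9 libraries, the log2 CPM of TRPV6 and S100G, channel and buffer, varied together with a Pearson r of 0.73, while that of CYP24A1 and VDR had an r of 0.67 and that of CYP27B1 and VDR one of 0.63. RXRA and TRPV6 went opposite ways with an r of -0.74, on few RXRA counts. The other pairs lay between -0.36 and 0.39. These values describe 9 libraries that share groups, replicate numbers and depth, and they carry no test.

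Among 12858 genes, the 5 whose log2 CPM was most like that of CYP24A1 over the 9 libraries were RBIS_2 (r = 0.933), KLHL40 (0.925), SLC30A3 (0.903), RRN3 (0.895) and MRPL27 (0.889). KLHL40 had mean TPM of 10.5, 7.60 and 4.73 in CYST, MAT and MAT + COL, and SLC30A3 of 1.14, 0.545 and 0.415, while RRN3 went from 41.0 to 34.1 and 33.3. The 3 most like CYP27B1 were A4GALT (0.969), GPX8 (0.966) and MMP1 (0.965), and the 3 most like VDR were ENSBTAG00000023792 (0.962), COX8A (0.931) and RPL36 (0.926). For TRPV6 they were RPP30 (0.982), UBL7 (0.962) and KATNBL1 (0.955), for S100G they were MBNL2 (0.922), RCAN1 (0.903) and MRPL9 (0.902), and for RXRA they were KLF13 (0.956), RALA (0.948) and SHF (0.947). These names describe likeness in these 9 libraries alone.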

How the data were processed

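Trimmed reads were aligned by the authors to ARS-UCD2.0 with CLC Genomics Workbench 25.0.1 at default parameters, and they deposited counts, the unnormalised reads per gene, as well as TPM. The strand setting and annotation release are not given in the sources used here. Genes kept by filterByExpr (minimum count of 10) were normalised by TMM and tested with edgeR 4.0.16 for each comparison on its 6 libraries, with p-values adjusted over all genes tested (Benjamini-Hochberg). A gene passed at an adjusted p under 0.05, and DEGs also needed a TPM above 1 in each library and a Log2FC past 1 or -1. The fits were tested on simulated data.

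Same-numbered libraries deviated together across genes, with correlations of 0.329, 0.437 and 0.396 (MAT and CYST), 0.471, 0.613 and 0.687 (MAT + COL and MAT) and 0.278, 0.350 and 0.347 (MAT + COL and CYST), so the replicate numbers of the labels were treated as a pairing.

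The 6 genes and the 7 lists were chosen with earlier results of these data known. Other genes are named when they passed, up to 5 per list with the block only, when theirs was the smallest p of a list without a passing gene, or as most like a member by Pearson r of log2 CPM (prior count of 2). KLHL40, SLC30A3, RRN3, the retinoid X receptors and the genes of the level paragraph were picked once values had been seen. The reads carry no molecular identifiers, so limits from counts cover counting error only. Alternatives were DESeq2 1.42.0, RLE size factors, no count filter, all 9 libraries in the fit, limma 3.58.1 on log2(TPM + 1) and log2(TPM + 0.1), no TPM criterion, the block, and leaving out each library.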

Additional observations from a re-analysis of the deposited data

How the results depend on the processing

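For MAT against CYST, 175 genes were DEGs, and the count was 726 with the replicate block, 708 with DESeq2, 331 with all 9 libraries in the fit and 5 to 227 when each library was left out in turn. For MAT + COL against CYST it was 141, and 433 with the replicate block, 710 with DESeq2, 339 with all 9 libraries and 3 to 166 with a library left out. For MAT + COL against MAT every setting gave 0. Listed genes past the test in MAT against CYST were 2, and 10 with the block, 9 with DESeq2, 5 with all 9 libraries, 1 with limma on log2(TPM + 0.1) and 0 to 1 with a library left out. The share of all genes past the test was 1.79%, 10.6% with the block, 10.6% with DESeq2 and 4.51% with all 9 libraries. In MAT + COL against CYST they were 1, and 4 with the block, 9 with DESeq2, 3 with all 9 libraries and 0 to 1 with a library left out, beside 1.49%, 5.26%, 12.2% and 4.67% of all genes in the first 4 of these fits. On the TPM scale the DEGs of MAT + COL against CYST shifted from 64 higher and 77 lower to 99 and 67 with limma on log2(TPM + 1), and to 95 and 64 with log2(TPM + 0.1).

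Over 13 alternatives, CYP24A1 kept its direction in the 3 comparisons, from -0.75 to -0.36, from -1.13 to -0.86 and from -1.76 to -1.37 on the log2 scale. VDR also kept its direction in the 3 comparisons. The alternatives reuse the libraries on which CYP24A1 was selected, so its steady direction is no independent evidence. In MAT + COL against MAT, CYP27B1 and RXRA had the opposite sign in 5 of 13, S100G in 3 and TRPV6 in 1. VDR in MAT + COL against CYST was -0.83 with limma on log2(TPM + 1), where the added 1 is close to its level, and S100G was -1.49 without MAT + COL replicate 1. Counts limit RXRA and VDR most. The block was not combined with leaving out a library.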
